A study of Homo sapiens with 10 samples.

Results

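The control libraries of a RibOxi-seq experiment record the 3′-ends of ribosomal RNA (rRNA) fragments that were ligated and sequenced when no oxidation followed. They were chosen by their labels, as all libraries named control, and are 5 of the 10 libraries of the series. All were made from total RNA of PA1, an established human ovarian teratoma line, without transgene or treatment. Control replicates 1 and 2 labelled NextSeq came from cells at passage 6, control replicate 3 labelled NextSeq from cells at passage 4, and control replicates 1 and 2 labelled MiSeq, a pilot, from cells at passage 7. Passage 7, the MiSeq and the smaller RNA input of the pilot go together and cannot be told apart, and passage 4 is a single library. The labels name instruments, and do not say which libraries shared a sequencing run. No label says that replicates were separate cultures. The study's protocol recommends technical replicates and takes control replicates as aliquots of RNA that is already digested. Whether the replicates of a passage shared a digest is not stated, so the digest may go with the passage too. The p-values thus measure only the spread between these libraries. Lists of 5 values below follow the order NextSeq replicates 1, 2 and 3, then MiSeq replicates 1 and 2, and the term passage 6 libraries stands for NextSeq replicates 1 and 2.

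In RibOxi-seq, RNA is digested with Benzonase, an endonuclease of little base preference that leaves a 3′-hydroxyl. In the oxidized samples, ends whose ribose carries a free 2′-hydroxyl are then oxidized and can no longer be joined to the 3′ linker, which is ligated afterwards. Control fragments bypass oxidation and the elimination of end bases, and go from digestion to the ligation. The study states that linker ligation has sequence biases, and that methylation intensity cannot yet be compared between sites. Counts at different positions thus depend on ligation as well as on cutting. A ribose with a 2′-O-methyl group cannot be cut on its 3′ side, so in control fragments a methylated position should carry few ends. In human rRNA such groups are placed by fibrillarin, the methyltransferase of box C/D snoRNPs, at positions to which their snoRNAs base-pair. The 28S rRNA also carries long, GC-rich expansion segments that bacterial rRNA lacks.

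Some fragment ends carried many counts and others none, and the sequences around the positions described below are shown here because each marks one of these cases. They are read from hg19 (GRCh37), plus strand, from the contig chrUn_gl000220, which holds 2 identical copies of each rRNA whose reads cannot be separated. The 18S rRNA (positions 1 to 1869) lies at 109078 to 110946 and at 153050 to 154918, and the 28S rRNA (positions 0 to 5069) at 113348 to 118417 and at 157320 to 162389. Names give the rRNA, the base and the position, and the capital is the base at the 3′-end of the counted fragments.
Highest position of passage 6, 28S G2415 (chrUn_gl000220:115753-115773): ggttccatgtGaacagcagtt
High in passage 6, 18S G1805 (chrUn_gl000220:110872-110892): ggtcgaacttGactatctaga
High in passage 6, 28S C1400 (chrUn_gl000220:114738-114758): aaggtgaaggCcggcgcgctc
Highest position of passage 4, 28S A75 (chrUn_gl000220:113413-113433): actaaccaggAttccctcagt
High in passage 4, 28S U2739 (chrUn_gl000220:116077-116097): tcgctggcccTtgaaaatccg
High in passage 4, 28S A3806 (chrUn_gl000220:117144-117164): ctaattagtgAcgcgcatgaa
Highest position of passage 7, 28S A2599 (chrUn_gl000220:115937-115957): gatcccggagAagccggcggg
Among the 100 highest of every passage, 28S G2731 (chrUn_gl000220:116069-116089): gtgagctctcGctggcccttg
Methylated position without a gap in passage 6, 28S C3886 (chrUn_gl000220:117224-117244): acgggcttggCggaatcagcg
Base before the methylated 28S A3723, 28S A3722 (chrUn_gl000220:117060-117080): tgtcaaagtgAagaaattcaa
The longest stretch without any count, 28S 847 to 904 in expansion segment ES7 (chrUn_gl000220:114195-114252), is all lower case: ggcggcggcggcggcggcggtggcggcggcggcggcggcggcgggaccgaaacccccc

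The deposited values are counts of sense alignments whose 3′-end lies at a position, for 6939 positions. The libraries held 72458614, 80964624, 75495510, 44061905 and 30392418 counts. Counts are not reads: the totals of all libraries exceed the reads that the study gives for them, and low counts came in steps whose size depended on the position. Among the values from 1 to 249 in the 5 libraries, 48 of 2241 in 18S were multiples of 50, but 110 of 152 in 28S from position 4500 to 5069 were. Below 50 counts, 672 of 710 values in 18S were even. For one of the NextSeq controls the study gives far more sequenced reads than for the others, while their totals were alike, so counts per sequenced read were not the same in all libraries. The number of reads behind each count cannot be read from the files. Shares of different regions within a library depend on the steps, and the same position in different libraries is affected alike only where the steps were alike. A count of 0 allows up to 3 counts where a read gives 1 count, or 0.0371 to 0.0987 CPM (counts per 1000000 counts of the library), but up to 150 counts, or 1.85 to 4.94 CPM, where a read gives 50. These limits cover counting error only. Counts were found at 6588, 6580, 6666, 6547 and 6522 positions.

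The landscape of 3′-ends was shared within a passage and differed between passages. Across the 6939 positions, Spearman's rho was 0.99 between the passage 6 libraries and 0.979 between the MiSeq libraries. The passage 4 library had a rho of 0.585 and 0.587 with the passage 6 libraries, which were sequenced on the same instrument, and of 0.47 and 0.507 with the MiSeq libraries. Between the passage 6 and the MiSeq libraries, rho lay between 0.441 and 0.478. These values describe positions of shared molecules and are not tests. The passage 6 libraries were so alike that their chi-square per degree of freedom was 56 when every count was taken as an independent event, and 1.12 when counts came in steps of 50 throughout. The chi-square per degree of freedom was 182 and 3.64 for the MiSeq pair, so the counts of positions that differed are given also with the passage 6 libraries as 1 sample.

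Counts were more concentrated in the passage 6 libraries. The 10 highest positions held 7.22%, 7.24%, 3.34%, 3.22% and 2.95% of the counts of a library. A share of 50% of the counts lay at 309, 307, 781, 533 and 563 positions. By this number passage 4 was the most even of the 5, and its 10 highest positions held a share near that of the MiSeq libraries. The share was 5.93% ± 2.24 (SD, n = 3) in the NextSeq and 3.08% ± 0.19 (SD, n = 2) in the MiSeq libraries. With each library as 1 sample, the smallest p that an exact two-sided permutation test of 3 against 2 can give is 0.2, so none of the 8 single values compared below could pass 0.05. The top 10 share gave p = 0.2 in this exact permutation test, or 0.229 after Benjamini-Hochberg adjustment over the 8 values. Within 18S alone the 10 highest positions held 22.8%, 22.6%, 4.97%, 11.3% and 11.1% of the 18S counts, so that the passage 4 library lay below the MiSeq libraries there.

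The 28S rRNA took most counts, and the 18S rRNA took fewer in the MiSeq libraries. The 18S share of counts was 16.4%, 16.7%, 16.5%, 7.77% and 8.61%, against 26.9% of positions. Counts per read differed between 18S and parts of 28S, so this distance from the share of positions need not be one of reads. The 3 NextSeq libraries, passage 4 included, lay close together and above both MiSeq libraries. The mean was 16.5% ± 0.13 (SD, n = 3) in NextSeq and 8.19% ± 0.59 (SD, n = 2) in MiSeq libraries (exact permutation test, p = 0.2, adjusted p = 0.229). The profile within 18S was not the same in the 3 NextSeq libraries: positions 1800 to 1869, the 3′-terminal stretch with helix 45 and its dimethylated adenines, held 3.69%, 3.71%, 1.14%, 0.839% and 0.96% of all counts. By this sum passage 4 lay near the MiSeq libraries, but the sum includes the high positions of passage 6 named further on. The median counts of the stretch were 5732, 6749, 13201, 549 and 393. By position, the median log2 fold of shares of passage 4 over passage 6 was -0.07, with 14 positions more than 4-fold higher and 14 lower. Over all positions that median was 1.13, with 36.4% higher and 12.3% lower. The stretch thus lay below the typical position by this fold. For MiSeq over passage 6 the median log2 fold change was -3.04, with 53 of 70 positions lower and 6 higher (edgeR's quasi-likelihood test, adjusted p under 0.05), beside 36.6% lower and 36.3% higher of all positions.

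**Figure D1:**
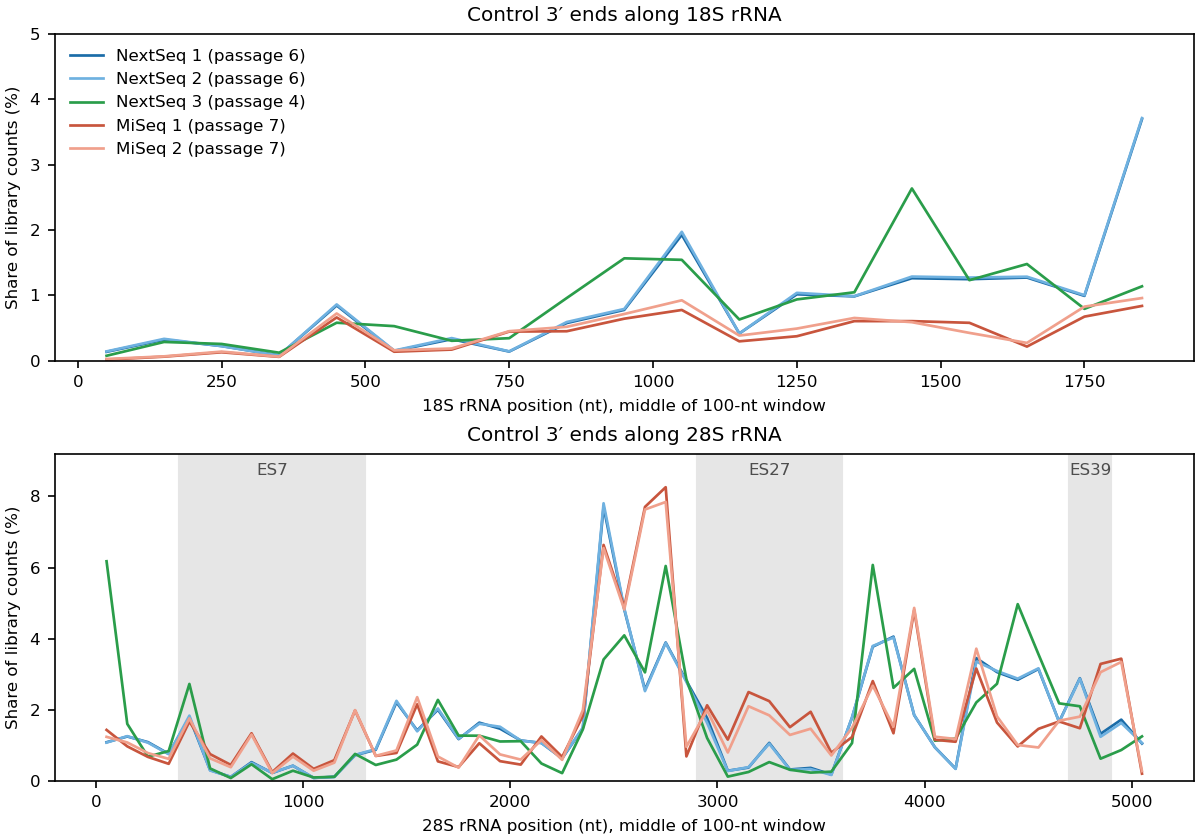
Share of a library's counts (%, vertical axis) in consecutive 100-nt windows along 18S (upper panel) and 28S rRNA (lower panel), with 1 line per control library, the last window of each rRNA being shorter, and the expansion segments ES7, ES27 and ES39 shaded. The lines of a passage run together, the passage 4 line stands apart over the first 100 positions of 28S (6.18%, against 1.08% to 1.43% in the others), and the MiSeq lines are above the others in ES27.

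Along 28S, positions 2400 to 2799 held more than their share of positions in all 5 libraries. They are 5.77% of all positions and held 19.0%, 19.1%, 16.6%, 27.5% and 26.8% of the counts, which depend on the unknown counts per read. The windows within it differed: positions 2400 to 2499 were the highest window of the passage 6 libraries (7.76% on average), and positions 2700 to 2799 that of the MiSeq libraries (8.05%). The passage 4 library had its highest window at the 5′ end of 28S, where positions 0 to 99 held 1.09%, 1.08%, 6.18%, 1.43% and 1.24% of counts. This end of 28S pairs with 5.8S rRNA in the ribosome. Over the 51 windows of 28S, the share of counts and the GC content had a Spearman's rho of -0.643 in passage 6, -0.752 in passage 4 and -0.072 in passage 7, given as a description of overlapping molecules.

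The expansion segments held larger shares of counts in the MiSeq than in the NextSeq libraries. ES7 (28S positions 400 to 1300, 81.8% GC, 13.0% of all positions) held 4.29%, 4.31%, 4.92%, 8.17% and 7.83% of counts. ES27 (2900 to 3600, 87.7% GC, 10.1% of positions), a long and mobile arm near the peptide exit, held 4.35%, 4.14%, 2.91%, 12.3% and 10.2%. ES39 (4700 to 4900, 80.1% GC, 2.90% of positions) held 4.26%, 4.16%, 2.73%, 4.86% and 4.94%. ES7 thus held less than its share of positions in every library. ES27 held more in MiSeq replicate 1 and about its share in MiSeq replicate 2 (9.74% with its bounds moved 50 positions up). ES39 held more in all libraries but that of passage 4. Multiples of 50 made up 2.49% to 4.45% of the values in 28S below position 1500, with ES7, and 72.5% to 80.8% from 4500, with ES39. Counts per read thus differed between segments, and shares of counts set against shares of positions need not be those of reads. Every MiSeq library lay above every NextSeq library in all 3 segments as bounded here. The means in MiSeq were 1.77, 2.95 and 1.32 times those in NextSeq for ES7, ES27 and ES39 (exact permutation test, p = 0.2 and adjusted p = 0.229 for each). The bounds were set to the nearest 100 positions, and for ES39 the difference of 1.18 percentage points became 0.21 or 4.11 when they were moved by 50 positions down or up. Moved down, the shares of ES39 were 3.97%, 3.96%, 3.51%, 3.84% and 4.21%, so MiSeq replicate 1 fell below both passage 6 libraries and the groups overlapped. Without the passage 4 library, which was the lowest, the difference for ES39 was 0.691 percentage points.

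No count was found at 208 positions in any of the 5 libraries, 193 in 28S and 15 in 18S. All but 3 of them lay in 6 runs of 10 or more positions. A run each covered the first 14 positions of 18S and of 28S and the other runs lay inside 28S. A fragment of mature rRNA that ends in these first positions is at most 14 nt long. The protocol filters out very small fragments, so the runs at the 5′ ends tell nothing about cutting there. The longest, at 847 to 904, is 91.4% GC and is the repeat of GGC printed above. The others were 3482 to 3527 in ES27 (46 positions, 95.7% GC), 2151 to 2187 (37 positions, 89.2% GC) and 763 to 798 in ES7 (36 positions, 75.0% GC, a repeat of CCGT). Outside these runs, 18S A27, a methylated position guided by U27, was at 0 in all 5 libraries. So were 28S positions 2194 and 4075, which are not known methylated positions.

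The mature 3′-ends of the rRNAs are ends that need no cut. At 28S U5068, the last position but 1 as numbered, 286800, 329200, 84850, 8850 and 12900 counts were found, or 3958, 4066, 1124, 201 and 424 CPM. It ranked 16 in both passage 6 libraries, 75 in the passage 4 library and 1302 and 603 in the MiSeq libraries. The last position, 5069, had 5450, 5700, 2000, 200 and 350 counts. The last base of 18S, A1869, had 20158, 25036, 13462, 224 and 262 counts. Both ends thus took larger shares in every NextSeq library than in either MiSeq library.

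The base at the fragment end differed most between the passage 6 and the passage 4 library. Outside known methylated positions, A and U together took 21.1%, 21.1%, 51.3%, 37.4% and 37.8% of counts, against 33.9% of positions. The MiSeq libraries lay between the 2 passages of the NextSeq group, so the groups overlapped (NextSeq 31.2% ± 17.4, SD, n = 3, MiSeq 37.6% ± 0.31, SD, n = 2, exact permutation test, p = 0.6, adjusted p = 0.6). The difference of the means was 6.43 percentage points, and 16.5 without passage 4. Guanine took 43.8%, 43.9%, 26.9%, 31.2% and 31.3% of counts and made up 34.3% of positions. At the base after the end, A followed the same order. It stood there for 12.1%, 12.1%, 24.3%, 20.7% and 21.5% of counts, against 17.5% of positions. Cutting and ligation both bear on the bases of counted ends, and their parts were not tested. Ends between U and A, one of the more labile steps of RNA, had 0.145, 0.143, 1.90, 1.02 and 1.08 times the density of an average position. Ends between a pair of guanines had 1.41, 1.41, 0.471, 0.644 and 0.638 times that density. These densities put UA at the bottom of the 16 dinucleotides in passage 6 and second only to AU in passage 4.

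**Figure D2:**
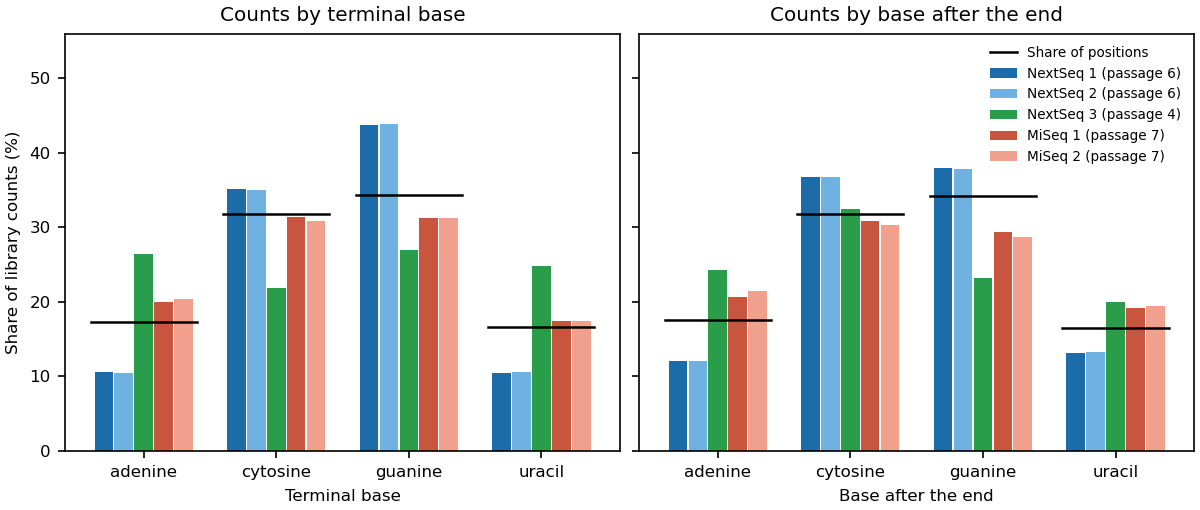
Share of counts (%, bars, 1 per control library) by the base at the fragment's 3′-end (left) and by the base that follows it in the rRNA (right), known methylated positions left out, with black lines for the share of positions. Adenine and uracil ends are lowest in the passage 6 libraries (10.5% to 10.6% each) and highest in the passage 4 library (26.5% and 24.8%).

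Most hot spots of a passage were not among those of another. Of the 100 positions with the highest mean share, which are 1.44% of all positions, passages 6 and 4 shared 6 (6% of each list), passages 6 and 7 shared 8 (8%), and passages 4 and 7 shared 18 (18%). The positions 28S U2727 and G2731 were in all 3 lists. 28S G2731 took 0.238%, 0.234%, 0.161%, 0.307% and 0.271% of counts. Within a passage the lists held: all of the 10 highest positions were the same in the passage 6 libraries, and 8 of 10 in the MiSeq libraries.

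In passage 6, the highest position was 28S G2415, with 1261027, 1421576, 16183, 71910 and 43831 counts, or 1.74%, 1.76%, 0.0214%, 0.163% and 0.144%. It lies 1 nt after the methylated U2414. The positions 18S C1807, G1805 and A1801, around the methylated U1804 guided by U20, followed with C3895 of 28S. G1805 held 0.759%, 0.754%, 0.0301%, 0.0908% and 0.1% of counts. Of the 10 highest positions of passage 6, 5 lay within 3 nt of a known methylated position without being one, against 1 of 10 in passage 4 and 1 of 10 in passage 7, where 9.53% of all positions are that near or at a site. Over the 100 highest positions the numbers were 15, 23 and 13. 28S C1400 had 365079, 425598, 3269, 2286 and 1392 counts and thus stood in passage 6 alone, at 112 times the mean share of the other passages. Terminal bases of the 10 were G at 6, C at 3 and A at 1.

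In the passage 4 library, 28S A75 had 706611 counts, 0.936% of the library, against 3949, 6020, 4076 and 3411 counts in the other 4 libraries. It was 112-fold above the mean share of the other passages. 28S G28 and U30 also lie at the 5′ end of 28S, with 0.34% and 0.294% of counts in passage 4 and 0.053% to 0.14% in the other libraries. The neighbours 28S C2738, U2739, U2740 and G2741 held 0.253%, 0.255%, 0.224% and 0.238% in passage 4, and were shared with the MiSeq libraries (0.0761% to 0.209%) but not with passage 6 (0.00112% to 0.00525%). At 28S A3806, the counts were 16930, 16057, 185682, 0 and 50. It precedes the methylated C3807, and the MiSeq libraries had all but no ends there. The nearby U3804 and G3810 were at 0 in both MiSeq libraries as well, so this lack was not particular to the base before the site.

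In the MiSeq libraries, 28S A2599 was highest, with 0.00587%, 0.00497%, 0.0908%, 0.394% and 0.333% of counts. The positions 28S G2711, C2712, G2725, C2726, U2727, G2731 and C2732 made up 7 of their 10 highest. 28S G2725 was the single position among the 10 highest of both passage 6 (0.549% and 0.552%) and passage 7 (0.288% and 0.279%). 28S C3925, which follows the methylated U3924, held 0.023%, 0.0217%, 0.0546%, 0.297% and 0.315%.

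**Figure D3:**
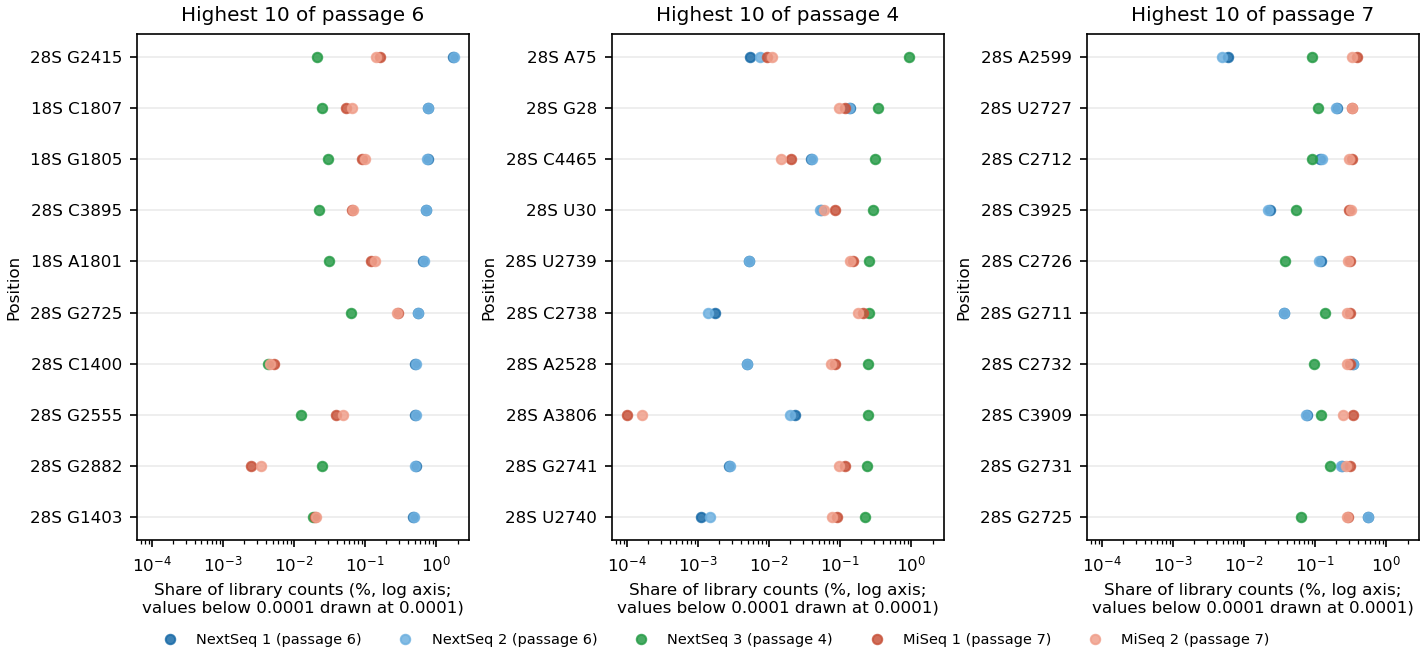
Share of counts (%, log axis) of the 10 positions with the highest mean share in passage 6 (left), passage 4 (middle) and passage 7 (right), with 1 point per control library. Points of a passage lie together, and at 28S A75 the passage 4 library stands at 0.936% while the others lie at 0.00545% to 0.0112%.

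The comparison of the 3 NextSeq with the 2 MiSeq controls, position by position, asked whether the landscape differed beyond the spread between libraries. By edgeR's quasi-likelihood test, 1006 of 6731 positions (14.9%) differed at an adjusted p under 0.05, of which 403 were higher (5.99%) and 603 lower (8.96%) in MiSeq. This count rests on both passage 6 libraries, as 2 samples, and on both MiSeq libraries, and was far higher without passage 4: it was 0 without either passage 6 library, without either MiSeq library, or with the passage 6 libraries counted as 1 sample (1206 to 1932 positions at an unadjusted p under 0.05), and 4909 without passage 4. The NextSeq group was also compared as passage 6 alone, as planned, with passage 4 given apart.

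Between passage 6 on the NextSeq and passage 7 on the MiSeq, 4909 of 6729 positions (73.0%) differed, 2443 higher and 2466 lower in MiSeq (edgeR's quasi-likelihood test, adjusted p under 0.05). With the passage 6 libraries counted as 1 sample, 4236 positions differed, in a fit whose spread comes from the MiSeq pair alone. The median log2 fold change of MiSeq over passage 6 was -0.05 after TMM scaling and 0.51 with library totals only, when 2916 were higher and 2033 lower, so the split between higher and lower depends on the scaling. The following counts of calls are set against 36.3% higher and 36.6% lower over all positions. In 18S, 351 of 1853 positions were higher in MiSeq (18.9%) and 860 lower (46.4%). In ES27, 460 of 655 were higher (70.2%) and 76 lower (11.6%), and in ES7, 442 of 807 were higher (54.8%) and 128 lower (15.9%). ES39 had 106 of 201 higher (52.7%) and 59 lower (29.4%). The median log2 fold change was -1.32 in 18S, 1.77 in ES7, 2.61 in ES27 and 1.28 in ES39, and these 4 directions were the same with library totals only and with passage 6 as 1 sample (272 higher and 722 lower in 18S, 402 and 115 in ES7, 429 and 67 in ES27, 100 and 53 in ES39), whereas the median of -0.35 in 28S outside the 3 segments became 0.22 with library totals only and -0.46 with passage 6 as 1 sample.

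The positions with the largest changes were at 0 in one of the groups, so their folds are bounds, set with 150 counts per library in place of lower values, which is 3 steps of 50. 28S U3425 in ES27 had 0, 0, 2736, 36194 and 16671 counts and was at least 349-fold higher in MiSeq than in passage 6 (adjusted p = 0.000214, edgeR). All 10 positions chosen for the largest increase were at 0 in both passage 6 libraries, as the choice by fold favours, and passed the minimum of 1000 counts through MiSeq, so that where they lie is no support for a region. They include, in ES27, C3088, U3089, C3090 and C3091 side by side, and C3186 with A3187. Passage 4 had 153 to 8316 counts at these 10 positions, and with it in the NextSeq group none of the 10 was called (adjusted p of 0.0858 to 0.46, edgeR). In the other direction, 28S G51 had 25248, 29542, 21619, 0 and 0 counts and was at least 85.5-fold lower in MiSeq than in passage 6 (adjusted p = 8.14e-05, edgeR). All 10 positions chosen for the largest decrease were at 0 in both MiSeq libraries, as the choice by fold favours, and passed that minimum through passage 6. They include, in 28S, U3804 and G3810 around the methylated C3807, and C4518 and G4519 before the methylated A4522. 18S A1731 had 24509, 27931, 1808, 0 and 0 counts. Passage 4 had 202 to 57845 counts at these 10 positions, the lowest at 28S G1876 and the highest at 28S U3804, and with it in the NextSeq group 9 of the 10 were called (adjusted p of 0.0292 to 0.0529, edgeR).

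The passage 4 library against the passage 6 libraries has 1 sample in a group and no test. With values under 3 counts set to 3, 3272 of 6717 positions (48.7%) had shares more than 4-fold apart, 2448 (36.4%) higher and 824 (12.3%) lower in passage 4. The median log2 fold of shares over all positions was 1.13. Ends at U and A lay above that, with medians of 2.61 and 2.26, and ends at G and C below, with 0.32 and 0.33. At U, 61.6% of positions were more than 4-fold higher in passage 4 and 2.65% lower, and at G, 25.3% were higher and 17.9% lower. 28S G4038 had 0, 0, 17509, 3252 and 2850 counts, at least 118-fold higher in passage 4 than in passage 6. 28S G277 had 2, 2, 12370, 911 and 1117 counts. The 10 positions chosen for the largest increase passed the minimum of 1000 counts through passage 4. Of these, 28S U3267, C3186, U3425, A3441, C3443, G4038 and A4061 were at 0 in passage 6, as the choice by fold favours. All of them but A4061 had 2850 to 36194 counts in each MiSeq library, and A4061 had 452 in each. 28S A371 (2 and 50 counts) and 18S G200 (98 and 240) had fewer in the MiSeq libraries. Both comparisons share the passage 6 libraries, so the MiSeq counts at these positions are no separate support. The 10 positions chosen for the largest decrease, which passed the minimum of 1000 counts through passage 6, were G or C of 28S, as were 74.5% of the 824 positions more than 4-fold lower in passage 4 and 50.7% of all positions. 28S C924 had 8881, 10174, 4, 68 and 170 counts, and 28S G1143 had 6630, 7018, 0, 274 and 564.

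At known methylated positions fewer fragments ended than beside them. The known sites are 106 positions that the study lists, 40 in 18S and 66 in 28S. The listed and the reference base differ at 28S 3719 and 4043, which are named here by the reference base. Together the sites held 0.359%, 0.385%, 0.732%, 0.173% and 0.173% of counts, against 1.53% of positions. Both MiSeq libraries lay below all 3 NextSeq libraries, and passage 4 was highest (difference of means -0.32 percentage points, -0.20 without passage 4, exact permutation test, p = 0.2, adjusted p = 0.229). A gap ratio, which divides a position's count by the median of its 10 neighbours on either side (known sites skipped), had a median of 0.0749, 0.101, 0.332, 0.0575 and 0.0386 at the known sites. Over other positions the median was 0.993 to 1.02. The groups did not overlap (exact permutation test, p = 0.2, adjusted p = 0.229), and the difference of the means, -0.121, was -0.0397 without passage 4, which stood furthest from the others.

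A ratio under 0.1, called a gap here, was found at 57 of 106, 53 of 106, 23 of 106, 60 of 104 and 68 of 104 known sites. At positions that are not known sites the background was 8.22%, 8.45%, 3%, 5.64% and 6.29%. The sites thus had more gaps than the background in every library, and fewest in passage 4. By base, known sites at A had medians of 0.037, 0.044, 0.351, 0.143 and 0.095, and other A positions 0.589, 0.597, 1.23, 1.09 and 1.10. Known sites at C had medians of 0.216, 0.206, 0.0479, 0.043 and 0.0378, so that C was the single base at which passage 4 had a deeper median than passage 6. Other C positions had medians of 1.46, 1.47, 0.868, 1.13 and 1.15. At 55 of the 104 sites with a ratio in all libraries, or 52.9%, the passage 4 ratio was the highest of the 5, beside 22.8% of other positions.

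**Figure D4:**
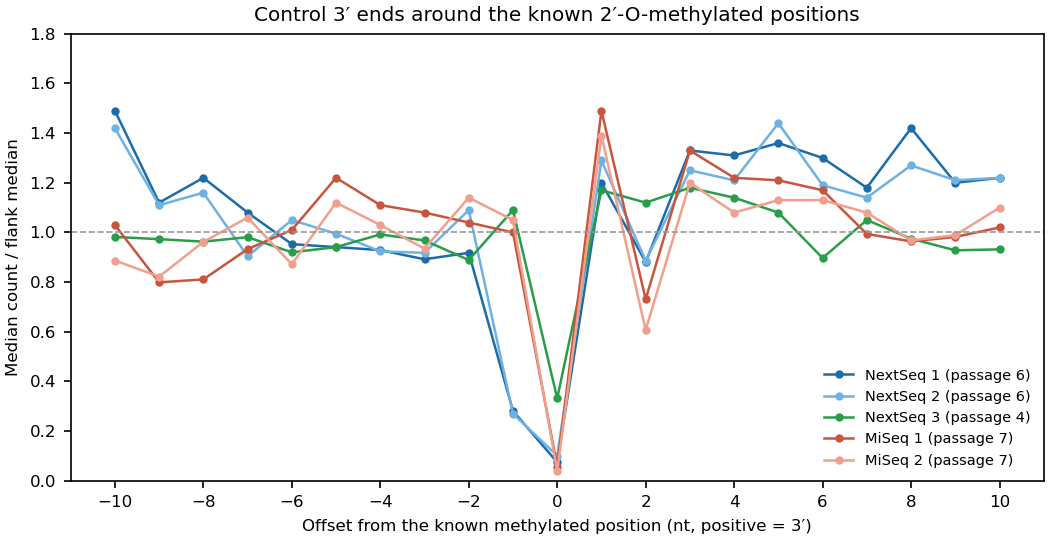
Median gap ratio (count over the median of its flanks, vertical axis) by offset in nt from the known methylated positions, with 1 line per control library and a dashed line at 1, other known sites left out of offsets other than 0. All libraries dip at offset 0 (0.0386 to 0.332), and the passage 6 libraries also dip at the base before (0.281 and 0.27).

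The base on the 5′ side of a methylated position was also poor in ends, in the passage 6 libraries. At offset -1, the median ratio was 0.281, 0.27, 1.09, 1 and 1.05 over 104 positions in the NextSeq and 102 in the MiSeq libraries, where 18S U667 and 28S A3806 have no ratio. Ratios under 0.1 were found there at 24, 26, 2, 8 and 9 positions. The dip was present for each base: the medians in the passage 6 libraries were 0.208 and 0.198 at A, 0.448 and 0.424 at C, 0.415 and 0.308 at G, and 0.256 and 0.253 at U, against 0.602 and 0.611, 1.48 and 1.49, 1.27 and 1.27, and 0.502 and 0.503 at other positions of the same base. 28S A3722, before the A3723 guided by U36C, had 100, 150, 18615, 10508 and 6138 counts. 28S A3823 had 204, 502, 7996, 6127 and 7840 counts, and 18S U1441 had 82, 466, 21887, 11311 and 5720. 18S A1030, before A1031, had 56, 10, 8832, 0 and 0 counts, and 28S G2363 had 200, 503, 20438, 4 and 102, so these were low in MiSeq too. At the neighbouring 18S A1031, 2 counts in MiSeq replicate 1 gave a ratio of 0.5. The flank medians of A1031 were 4 and 50 counts in MiSeq replicates 1 and 2, so a dip at A1030 could not be judged in either library. At 28S U3839, the counts were low throughout, with 100, 2, 454, 50 and 100. All 6 were picked after their values were seen, among the lowest ratios of passage 6. Of the 102 positions with a ratio in all 5 libraries, 71 (69.6%) had a lower ratio in both passage 6 libraries than in both MiSeq libraries, beside 40% of 6437 other positions with a ratio in all 5, and 18 had a higher one. At 82 (80.4%) it was lower than in the passage 4 library, beside 43.9% of the others. By shares, 72 of the 104 (69.2%) were more than 4-fold higher in passage 4 than in passage 6, beside 36.4% of all positions. In the test of passage 6 against passage 7, 43 of 104 (41.3%) were higher in MiSeq and 19 (18.3%) lower, beside 36.3% and 36.6% of all positions. The share higher was thus near that of all positions, and the share lower was below it. The median log2 fold change was 0.41 (0.97 with library totals only), beside -0.05 (0.51) over all positions. The base after the site, at offset 1, had medians of 1.2, 1.29, 1.17, 1.49 and 1.39 and no dip in any library.

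Not every known site had a gap. Of the 104 sites with a ratio in all 5 libraries, 14 (13.5%) had a gap in all of them and 19 (18.3%) in none, beside 0.581% and 82.3% of 6539 other positions. A gap can be judged only where its flanks hold counts. The median of the flanks was 150 counts or fewer, the limit that a 0 allows at 50 counts per read, at 3, 3, 1, 15 and 16 known sites, and 2, 2, 1, 8 and 10 of these were among the gaps counted. Of the 14 sites, 12 had flanks above 150 counts in all libraries, and the others were 18S A27 and 28S C4053. Sites with a gap throughout included 28S C2421, with 352, 307, 869, 1070 and 1009 counts, and 28S C4455, guided by U49A/B, with 350, 350, 1000, 150 and 100. 28S C4053, guided by U75, had counts in the passage 4 library alone, where it had 100. Its flank medians were 150, 150, 3302, 1054 and 808 counts, so a gap there was not detectable in passage 6. The lowest mean ratios in passage 6 were at 18S A27, U799, A166 and U172 and at 28S C4053, each with 6 counts or fewer in either library, of which A27 (flank medians of 108 and 105) and C4053 rest on flanks of 150 counts or fewer.

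The highest mean ratios in passage 6 were at 18S G867, 28S A1325, 28S U2414, 28S U4043 and 28S G3791, of which U4043 rests on 152 and 150 counts. 28S U2414, the site before the highest position, had ratios of 1.96, 2.18, 0.307, 0.0759 and 0.0539 and 65515, 80228, 6707, 2150 and 1309 counts (log2 fold change of MiSeq over passage 6 of -4.92, adjusted p = 6.95e-05, edgeR). 28S C3886, guided by U47, had ratios of 1.34, 1.27, 0.0146, 0.0088 and 0.00893, with 20014, 20670, 250, 50 and 50 counts. It was open in passage 6 and had a gap in the 3 other libraries. 28S A397 and A1325 were likewise at 0.5 or more in both passage 6 libraries and under 0.1 in both MiSeq libraries, which makes 4 such sites by ratio. At A1325 the ratios rest on few counts (438, 560, 160, 0 and 0, with flank medians of 154, 258, 308, 112 and 50), so its gap in MiSeq was not detectable at this depth. The reverse was found at 28S A4522, guided by U29, with ratios of 0.0427, 0.0703, 0.847, 0.5 and 0.667, which rest on 50 counts in each MiSeq library, with flank medians of 100 and 75. The share of other positions with either pattern was not counted, so these numbers of sites have no background and are a description only. Between passage 6 and passage 7, 33 of 104 known sites were lower in MiSeq (31.7%) and 8 higher (7.69%), beside 36.6% and 36.3% of all positions, and their median log2 fold change was -2.04 (-1.49 with library totals only).

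**Figure D5:**
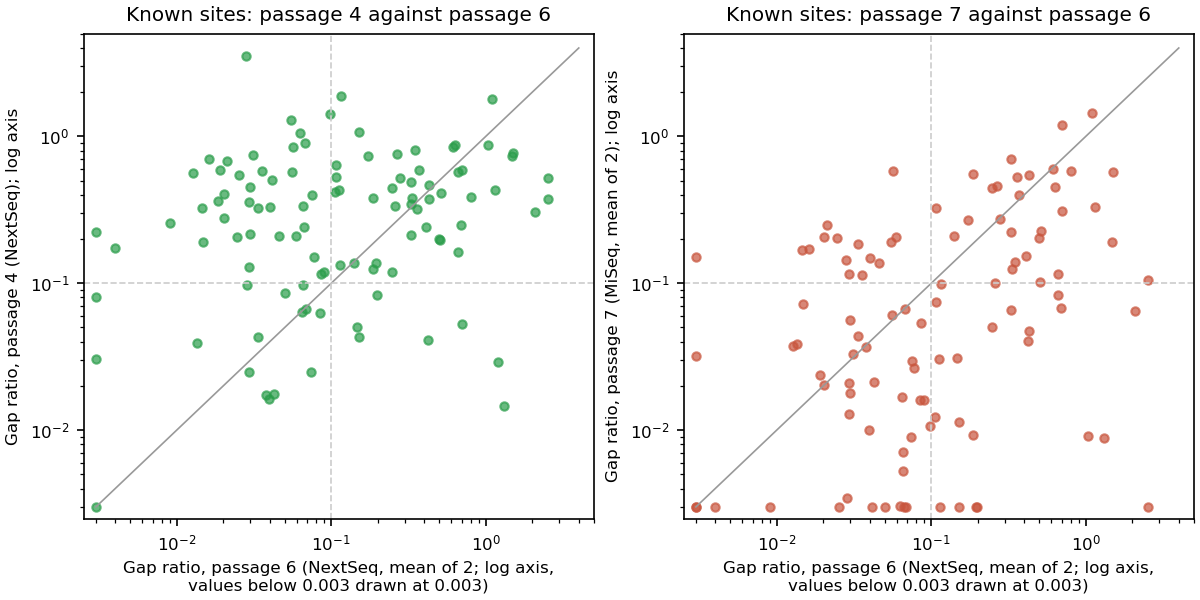
Gap ratio of the known methylated positions (log axes, 1 point per site) in passage 4 (left) and as the mean of the MiSeq libraries (right) against the mean of the passage 6 libraries, with the diagonal and dashed lines at 0.1. In passage 4 many sites with a gap in passage 6 lie above 0.1 (23 of 106 sites are under it), and on the right a few sites open in passage 6, such as 28S C3886, lie far below the diagonal.

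The study does not mark 7 known sites as detected. Their control ratios fell into both kinds. 28S C2291, listed with U48, had ratios of 1.13, 1.07, 1.79, 1.34 and 1.54, and 18S U1668 had 0.687, 0.708, 0.59, 1.22 and 1.16, so neither had a gap in any library. 28S G3719 had 0.63, 0.636, 0.873, 0.529 and 0.382, and 28S U4043 had 1.52, 1.5, 0.77, 0.597 and 0.542, of which the first 2 rest on 152 and 150 counts. 28S U4497, guided by SNORD62A/B, had 0.0317, 0.0283, 0.215, 0.0357 and 0, 28S A2362, guided by U76, had 0.0332, 0.0255, 0.356, 0.0845 and 0.145, and 28S G1521 had 0.0324, 0, 0.704, 0.23 and 0.115. These 3 had gaps in both passage 6 libraries. 28S U4497 is also the base before the known site G4498, so its gap cannot be told from the passage 6 dip at such bases. For U4497 the study proposes that G4498 may be fully methylated, which would keep U4497 from being exposed. At 18S U1668 it found no stop in primer extension.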

How the data were processed

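The authors trimmed reads with cutadapt 1.12, collapsed PCR duplicates by a randomer, aligned with TopHat2 2.1.1 to hg19, sorted with SAMtools 0.1.19, converted with BEDtools, and deposited counts of 3′-ends per position, without normalization. Lines for other features carried 0 counts and were dropped. The oxidized libraries and the deposited DESeq2 tables of fold changes and p-values were not used. The positions and lists were chosen with earlier results of these data known.

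Shares are counts over the library total. Position tests used edgeR 4.0.16 in R 4.3.3 (TMM, positions with at least 1 count, quasi-likelihood test, Benjamini-Hochberg adjustment). They were run on simulated data first, with a lower dispersion than in these data and without count steps. The common dispersion here was 0.735 for NextSeq against MiSeq and 0.157 for passage 6 against passage 7. That run thus does not vouch for the tests on these data. Fold changes are MiSeq over NextSeq. Single values used exact permutation tests (scipy). Known sites came from the study's list. Positions named are the 10 highest of each passage, the 10 largest changes per direction with at least 1000 counts in the higher group, the 5 highest and 5 lowest gap ratios of passage 6, known sites not marked as detected and the last positions of each rRNA, and others are said to be, or are members of a counted pattern. Replicates 1 and 2 of passages 6 and 7 share numbers only: the correlation of their deviations was 0.011 over 6939 positions. Alternatives were DESeq2 1.42.0 (Wald test), RLE factors, library totals, other filters, counts divided by 50, separate rRNAs, known sites left out, a replicate block, other bounds, flanks and list sizes, and each library left out.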

Additional observations from a re-analysis of the deposited data

How the results depend on the processing

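Differences are MiSeq minus NextSeq. All 8 single values kept their direction under the alternatives run. Apart from leaving out a library, the differences that moved by more than 1 SD were those of ES7 (3.49 percentage points, 2.39 and 3.95 with its bounds 50 positions down and up, 3.92 without the 50 highest positions), ES27 (7.43, 5.34 with its bounds down), ES39 (1.18, 0.21 and 4.11 with its bounds down and up), the known sites (-0.32, and -1.51 with 1 position on each side) and the top 10 share (-2.85, -4.87 for the top 50 and -5.59 within 18S). Leaving out each library gave -8.75 to -7.92 for the 18S share (-8.33, moved by more than 1 SD without either MiSeq library), 0.691 (without passage 4) to 1.46 for ES39, 1.39 to 16.5 for A and U ends and -0.168 to -0.0397 for the gap ratio. The lowest absolute values of the last came without passage 4, as did the highest of A and U ends.

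The 1006 positions that differed between NextSeq and MiSeq became 3006 with DESeq2's Wald test, which left 273 without an adjusted p, and 489 with library totals only, and ranged from 0 to 4909 with each library left out. With the passage 6 libraries as 1 sample, chosen after seeing the data, it was 0. The replicate block, under which passage 4 has a block to itself, gave 4573. The numbers pair nothing, and for passage 6 against passage 7 the replicate block gave 4609 beside 4909, where other alternatives gave 4236 to 5335. Without 1 library at a time the count was 4247 to 5029, the arm with 1 library being taken to vary like the other. Passage 4 and passage 6 differed 8-fold at 1982 positions, against 3272 at 4-fold, and 3006 at 4-fold with values under 150 counts set to 150, chosen after seeing the data. The 20 positions named for the largest changes between passages 6 and 7 kept their direction and their call under the alternatives run, while in NextSeq against MiSeq they kept their direction, lost the call 49 times and gained it 27 times. The 20 named for passage 4 against 6 kept their direction without either passage 6 library, the alternatives run for them, and the other named positions were not run one by one. The unknown number of counts per read limits all shares between regions.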
